A study of Mus musculus with 12 samples.

Results

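Voltage-gated sodium channels are membrane proteins built from 1 large pore-forming alpha subunit and small auxiliary beta subunits. The alpha subunit opens on depolarization and carries the inward sodium current of the action potential. The beta subunits tune its gating and its place in the membrane. Of this gene family, 7 genes were followed here by symbol in the RNA-seq table and by Ensembl identifier in the CLIP count table: the alpha subunits Scn1a, Scn2a, Scn3a and Scn8a and the beta subunits Scn2b, Scn3b and Scn4b. They are 7 of the 18208 genes of the RNA-seq table and hold 415 of the 147438 distinct positions of the CLIP table.

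The CLIP data are the RNA fragments that were cross-linked to hnRNP H in mouse striatum and pulled down with an antibody against that protein. hnRNP H is an RNA-binding protein that is known to bind runs of G and to act on splicing and on the processing of 3′ ends. Wild-type C57BL/6J mice were used, aged post-natal day 50 to 100, born to Hnrnph1-heterozygous mutant fathers and C57BL/6J mothers. All received saline on days 1 and 2, and on day 3 they received intraperitoneal saline or methamphetamine, a psychostimulant that releases dopamine, at 2 mg/kg. Whole striata were taken 30 min later. There were 3 pools per treatment, each of 4 mice (2 females and 2 males), and a pool gave 1 CLIP library and 1 RNA-seq library, so a value is a pool's mean over both sexes and over several litters.

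RNA-seq depth was 3935160 to 5091839 reads per library, and CLIP depth was 423057 to 1635338 peak reads. In both assays the libraries stood apart in a way that cut across treatment. On the first principal component (65.6% of the variance in RNA-seq, 46.99% in CLIP), methamphetamine replicate 2 fell with saline replicates 1 and 3, a set called side A here. The remaining 3, saline replicate 2 and methamphetamine replicates 1 and 3, are called side B. No batch in the labels matches this division, so sides are given below as values without a test. Markers of the labelled tissue were high in every library: the 12 genes of striatal projection neurons summed to 10155 to 11103 CPM (reads scaled to the library total) on side A and to 8462 to 9276 on side B. Of these 12, 7 were higher in every side A library than in any side B library, and 0 the other way, so the sum is not a uniform shift. The sum of the 10 genes of cortical excitatory neurons ran the other way, at 174 to 406 CPM on side A and 498 to 890 on side B. Of these 10, 6 were higher in every side B library. The 6 astrocyte genes summed to 1985 to 2362 CPM on side A and 3538 to 3967 on side B, and 5 of them were higher in every side B library. Of the 60 marker genes counted, over 8 cell types, only the choroid plexus gene Kcnj13 was at 0 reads in some library. The part of these markers in the values below was not tested, and in such bulk tissue fewer cells of a type and less RNA per cell cannot be told apart.

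Scn3a (chr2:65457118-65567627, minus strand, GRCm38), Scn2a (chr2:65620771-65767447, plus) and Scn1a (chr2:66270778-66440840, minus) form a cluster of alpha genes, and Scn8a lies apart (chr15:100869858-101045938, plus). Scn2b (chr9:45117782-45130070, plus) and Scn4b (chr9:45138395-45154152, plus) are neighbours, and Scn3b (chr9:40269217-40291618, plus) is on the same chromosome. Of the 50-base stretches in their transcripts, 4.03% in Scn1a, 5.62% in Scn2a and 6.49% in Scn3a also occurred in another sodium channel gene, so a small part of the reads of these 3 could be shared. The share was 0.0374% in Scn8a and 0 in the 3 beta genes. The antisense gene Gm10684 spans all 18 Scn2b positions. Whether the authors' counting used strand is not given in the sources used here.

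The sequences under the exonic CLIP windows are shown first, because hnRNP H is known for G runs. Each window of the deposited tables is 100 bases wide, and from each 3′ UTR window the 30 bases around its longest G run are printed in the sense of the transcript (GENCODE M21 transcripts, GRCm38), with that longest run in capitals. The first pair comes from the 2 Scn4b windows with the most CLIP reads, and the third from an Scn4b window in both peak lists that holds no GGG.
Scn4b chr9:45153638-45153667 (+): ggatgaaggggttGGGGGtggggctctgca
Scn4b chr9:45153766-45153795 (+): agacgactgccaccggagggctGGGGcaag
Scn4b chr9:45152814-45152843 (+): ctgtcctcatctctGGtttgcatcccaata
The next sequences are from 3 of the 4 Scn2b windows that the authors listed, from 2 listed Scn8a windows in the last exon, and from the listed Scn2a window, which lies wholly in the coding part of exon 17 and is printed whole.
Scn2b chr9:45127793-45127822 (+): ctaagacagtctcaGGGaccaatacttgcc
Scn2b chr9:45128233-45128262 (+): aactcctgggtaaGGGGaatctaacccttc
Scn2b chr9:45129053-45129082 (+): gcttctgtgagatGGGGtgagaaactgtga
Scn8a chr15:101045259-101045288 (+): GGGGtgaagtgggcaggtgtgcacatgtat
Scn8a chr15:101041159-101041188 (+): aGacacacaaagacacacacagacacatac
Scn2a chr2:65717672-65717771 (+): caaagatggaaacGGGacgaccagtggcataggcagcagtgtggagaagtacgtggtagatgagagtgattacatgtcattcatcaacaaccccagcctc
The Scn4b window with the most reads held 7 non-overlapping GGG in its 100 bases, and 44 of those bases were G. The Scn8a window at 101041159, a CA-rich stretch, held no GG at all, and its 36 reads included 19 from methamphetamine replicate 1. Searching the transcript strand only, GGG was found in 11 of the 15 listed sodium channel windows that lie within 1 exon (73.3%) and GGGG in 5 (33.3%). Among all 4122 listed windows that lie within 1 exon, the shares were 81.7% for GGG and 48.7% for GGGG. GGGG also counts as GGG. The difference in these shares was not tested, and a match is a description of letters, not a binding site.

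The 7 genes covered a wide range of RNA levels in striatum, and Scn4b stood far above the rest. Levels between genes are compared per length, as RPKM (reads scaled to the length of the merged exons and to the library total), over the 6 libraries. Scn4b, whose protein is known for resurgent sodium current and for its abundance in striatum, had 313 ± 58.4 RPKM (SD, n = 6), which put it at the 99.5th percentile of 17904 genes with a length. Scn2b, a beta subunit held to the alpha subunit by a disulfide bond, came next at 53.2 ± 8.03. Scn8a, the main alpha subunit of mature axon initial segments and nodes of Ranvier, had 24.1 ± 2.98, and Scn2a, an alpha subunit of unmyelinated axons and initial segments, had 14.1 ± 4.84. The ranges of Scn8a and Scn2a did not overlap (20.9 to 28.3 against 8.18 to 20.6). Scn3b, a beta subunit bound without a disulfide, had 9.14 ± 1.70, Scn1a, the alpha subunit known for its role in fast-spiking interneurons, 8.60 ± 2.90, and Scn3a, an alpha subunit known mainly from the embryonic brain, 6.29 ± 0.69. The ranges of these 3 genes overlapped, so their order is within the spread between libraries. Scn8a took 40.7% to 51.7% of the summed RPKM of the 4 alpha genes in each library, and Scn4b took 75.2% to 88.3% of that of the 3 beta genes.

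Among the alpha subunits, no RNA level differed between treatments beyond the spread between pools. Values are deposited log2 CPM, given for replicates 1, 2 and 3 in that order. Scn8a had 8.54, 8.71 and 8.58 after saline and 8.57, 8.64 and 8.78 after methamphetamine. Its change, methamphetamine minus saline, was 0.05 ± 0.16 (SE), with a 95% interval of -0.31 to 0.40. Its SD over all 6 libraries was 0.09, at the 3.79th percentile among 7853 genes with a mean of at least 4 log2 CPM, and neither the treatments nor the sides separated. Scn2a had 7.57, 8.02 and 6.92 after saline and 7.56, 7.03 and 7.81 after methamphetamine. The treatments overlapped throughout this range, and the change was -0.04 ± 0.30. The 3 side A libraries averaged 7.18 and the 3 side B libraries 7.80, though saline replicate 1 of side A (7.57) and methamphetamine replicate 1 of side B (7.56) were level.

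Scn1a had 6.56, 6.96 and 6.30 log2 CPM after saline and 7.17, 6.37 and 6.23 after methamphetamine. Its highest value was that of methamphetamine replicate 1, and its change was -0.02 ± 0.27. Pvalb, the defining gene of fast-spiking interneurons and a member of the interneuron markers, had 1150 reads in that library and 44 to 180 in the other 5. None of the other interneuron markers had its highest reads there, and Nos1 (384 reads) and Lhx6 (141) had their lowest. The 8 interneuron markers, Pvalb included, summed to 749 CPM there, within the 534 to 775 of side B and above the 406 to 509 of side A. Their part in the Scn1a value was not tested. Scn3a had 6.56, 6.46 and 6.28 after saline and 6.14, 6.39 and 6.35 after methamphetamine, a change of -0.14 ± 0.16. The lowest of its 6 values was methamphetamine replicate 1 and the highest saline replicate 1.

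Among the beta subunits, Scn4b had the largest fitted change of the 7 genes, and its libraries separated by side and not by treatment. It had 10.93, 10.48 and 11.07 log2 CPM after saline and 10.45, 10.96 and 10.07 after methamphetamine. The fitted change was -0.34 ± 0.29, with a 95% interval of -0.99 to 0.32. Without methamphetamine replicate 3 it was -0.13, as with the library side as a covariate, and in both of these fits other channel genes had larger changes (Scn2a -0.21 and -0.27). All 3 side A libraries (10.93 to 11.07) lay above all 3 side B libraries (10.07 to 10.48), by 0.65 on average. Within a side, methamphetamine minus saline was -0.04 on side A and -0.22 on side B. Scn3b showed the opposite side order, with 5.66, 5.95 and 5.60 after saline and 5.71, 5.44 and 5.83 after methamphetamine. Its change was -0.08 ± 0.18, and its side A mean was 0.26 below its side B mean. Scn2b had 8.22, 8.11 and 7.81 after saline and 7.90, 7.91 and 8.14 after methamphetamine, a change of -0.06 ± 0.17 with both groups spread over the same range.

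Over the 7 genes, limma with Benjamini-Hochberg adjustment over all genes gave each an adjusted p of 0.9998, and the treatments overlapped in every one. Of all 18208 genes, 0 (0%) passed the adjusted threshold of 0.05, 276 (1.52%) had an unadjusted p under 0.05, none of them a channel member, and 6.01% had treatments that did not overlap. edgeR and DESeq2 on the recovered reads also called 0 genes, with 223 and 103 at an unadjusted p under 0.05. The library sides did not overlap in 2 of the 7 channel genes, Scn4b and Scn3b, against 38.8% of all genes, so the channel share is near that of the whole table. The ratio of Scn4b to Scn2a RPKM, which joins the most abundant beta with an alpha subunit of the opposite side order, was 26.2, 14.1 and 45.4 after saline and 18.9, 38.8 and 12.2 after methamphetamine. It was 26.2 to 45.4 on side A and 12.2 to 18.9 on side B. This ratio was chosen after its values were seen.

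**Figure D1:**
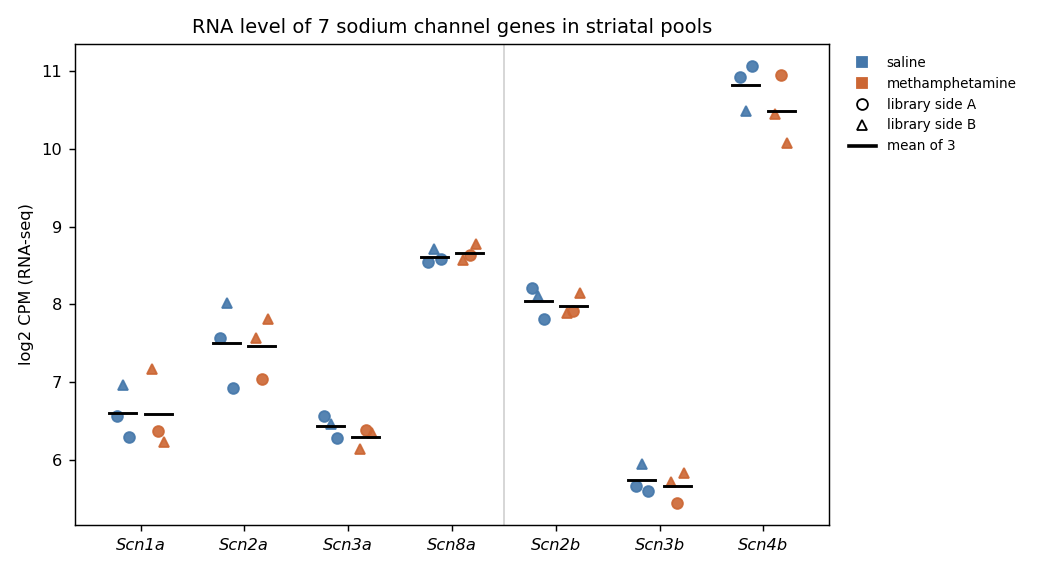
RNA level (log2 CPM) of each sodium channel gene in 6 striatal pools, 3 after saline and 3 after methamphetamine, with bars at the mean of 3, alpha subunits left of the grey line and beta subunits right of it. Treatments overlap in all 7 genes, while the side A libraries (circles) of Scn4b all lie above its side B libraries (triangles).

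The genes whose RNA pattern over the 6 libraries was most like that of a channel gene were taken as the 3 with the highest Pearson correlation among the 7853 genes with a mean of at least 4 log2 CPM, as a description. For Scn4b they included Dip2c (r = 0.998) and Ndufs3 (0.997). For Scn2a they were Nudt21 (0.995), Dok6 (0.995) and Fgf14 (0.994), the last of which encodes an intracellular partner of sodium channels. For Scn8a the values were 0.989 for Mtmr3, 0.988 for Ociad2 and 0.987 for Syt16, and for Scn1a 0.991 for Mrpl58, 0.982 for Taf1d and 0.978 for Auh. The nearest genes were Ecel1 (0.982) for Scn3a, Cpne6 (0.994) for Scn2b and Pcmt1 (0.994) for Scn3b. Between channel genes, Scn2a and Scn3b ran together (r = 0.909), and Scn4b ran against Scn2a (-0.77), Scn3b (-0.73) and Scn8a (-0.72). These correlations share the same 6 libraries, their depth and their 2 sides.

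hnRNP H CLIP reads were found in all 7 genes, 5288 in total or 0.0945% of all CLIP reads. Scn8a had 252 positions, at the 99.9th percentile of the 16910 genes with a position, and Scn4b had 42, Scn2a 41, Scn3a 26, Scn1a 19, Scn2b 18 and Scn3b 17. Per 10 kb of gene, Scn4b had 1166 reads over the 6 libraries, Scn2b 305, Scn8a 111, Scn3a 48.7, Scn3b 39.3, Scn2a 21.3 and Scn1a 11.2. Most positions were thinly filled: 233 of the 415 had more than 3 reads in no library, 14 had no read, and 30 had reads in all 6 libraries.

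Where the reads lay differed between genes. Introns held 99.8% of the Scn3a reads, 94.7% of the Scn1a reads and 86.0% of the Scn8a reads. The 3′ UTR held 79.7% of the Scn2b reads and 64.6% of the Scn4b reads. Listed 3′ UTR positions without counts are left out of these shares, 5 of 11 listed positions in Scn4b and 2 of 4 in Scn2b. Scn2a was mixed, with 40.9% in introns, 38.7% in the 3′ UTR and 19.5% in coding exons, as was Scn3b, with 58.0% in introns and 42.05% in the 3′ UTR. Over the 7 genes, introns held 61.5% and 3′ UTRs 33.9% of the reads. The intron share was 56.7% to 70.4% in single libraries, and the treatments overlapped in it. A single position held 47.0% of the Scn3a reads and another 45.8% of the Scn4b reads, while no Scn8a position held more than 3.44%.

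**Figure D2:**
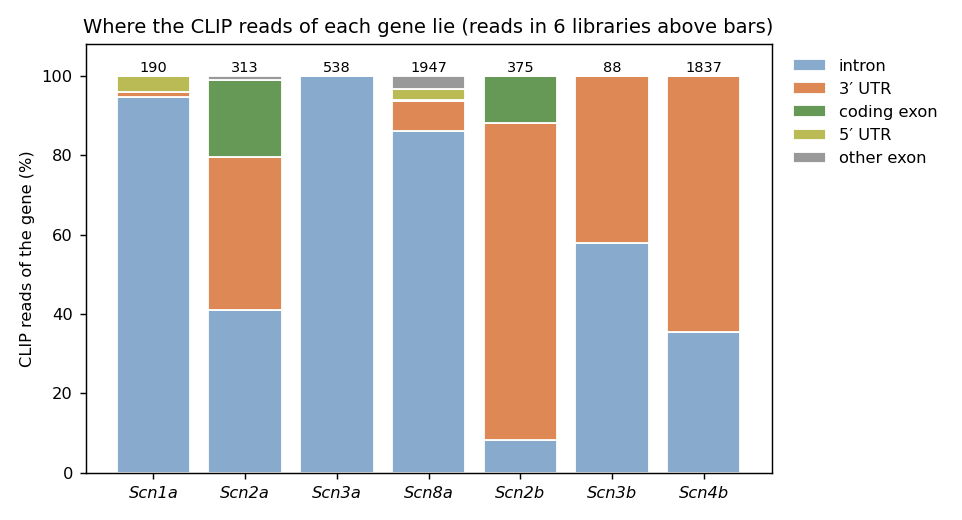
Share of the CLIP reads of each gene (percent, summed over 6 libraries) in introns, 3′ UTRs, coding exons, 5′ UTRs and other exons, with the number of reads above each bar. Scn1a, Scn3a and Scn8a are mostly intron, and Scn2b and Scn4b mostly 3′ UTR.

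The CLIP reads of a gene, summed over its positions, were compared between treatments as CPM of all peak reads, and no channel gene passed the test. Scn2a was the only one of the 6 tested genes whose treatments did not overlap. It had 40.8, 35.5 and 34.9 CPM after saline and 135, 48.99 and 45.3 after methamphetamine. Its change by edgeR's quasi-likelihood test was 1.05 ± 0.52 on the log2 scale, with an unadjusted p of 0.0723 and an adjusted p of 0.883. Without methamphetamine replicate 1, which held 123 of its 313 reads, the change was 0.31, and over the other libraries left out in turn it was 0.94 to 1.23. Scn8a had 356, 222 and 268 CPM after saline and 540, 347 and 351 after methamphetamine, a change of 0.54 ± 0.36. The change was 0.28 without methamphetamine replicate 1 and 0.22 without the gene's highest position. Its treatments overlapped, since saline replicate 1 lay above 2 of the 3 methamphetamine libraries. Scn3a had 94.9, 87.5 and 97.8 after saline and 89.1, 109 and 89.0 after methamphetamine, a change of 0.02 ± 0.33. Scn1a, with 7 to 49 reads per library, had 46.5, 16.5 and 30.0 after saline and 42.9, 30.6 and 26.9 after methamphetamine, a change of 0.09 ± 0.49.

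Of the beta subunits, Scn4b had 255, 187 and 351 CPM after saline and 323, 492 and 233 after methamphetamine. The groups overlapped, and the change of 0.39 ± 0.38 rested on methamphetamine replicate 2: without it the change was -0.01. The RNA-seq library of that pool held 4443 CPM of the 6 choroid plexus markers, against 60.0 to 200 in the other 5 RNA-seq libraries. The part of that tissue in the pool's CLIP reads was not tested. Scn2b had 48.4, 63.8 and 67.3 after saline and 96.8, 67.4 and 55.4 after methamphetamine, a change of 0.29 ± 0.39. That change was 0.0052 without methamphetamine replicate 1, 0.086 without saline replicate 1 and 0.10 without the gene's highest position. Scn3b was under the count filter and was not tested. It had 8.54, 4.73 and 8.56 CPM after saline and 56.1, 9.18 and 5.04 after methamphetamine, and 51 of its 88 reads came from methamphetamine replicate 1. Of 8177 genes tested, 0 (0%) passed the adjusted threshold, 429 (5.25%) had an unadjusted p under 0.05, none of them a channel gene, and 9.25% had treatments that did not overlap. DESeq2 also called 0, with 396 at an unadjusted p under 0.05. All 6 tested channel genes had a fitted change above 0, with a median of 0.34, beside 52.3% of all genes above 0 and a median of 0.04.

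**Figure D3:**
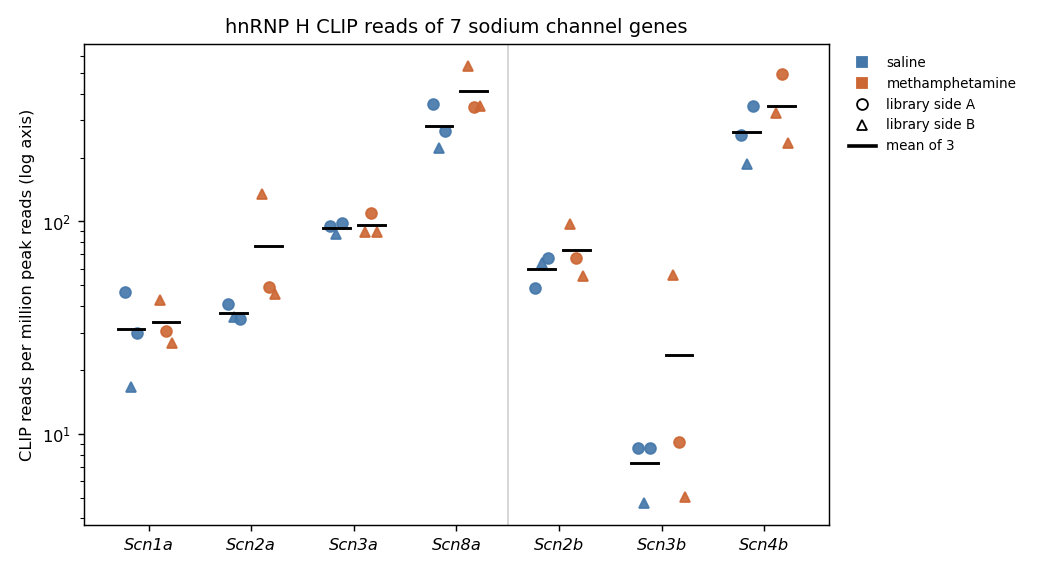
CLIP reads of each sodium channel gene as CPM of all peak reads (log axis) in 6 pools, 3 per treatment, with bars at the mean of 3. Only for Scn2a do the 2 treatments not overlap, and for Scn2a and Scn3b methamphetamine replicate 1 lies far above the other 5 libraries.

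Set against the RNA of the same pool, the channel genes ranged from near the median of all genes to far under it. The measure is CLIP CPM per 100 RNA CPM, whose median over 6468 genes with enough reads in both assays was 104. RNA from introns adds to CLIP reads, and whether the RNA-seq counts include introns is not given in the sources used here. Scn3a had a median of 118 over the 6 pools and Scn8a one of 89.2. Scn1a had 38.3, Scn2a 28.6, Scn2b 27.1, Scn4b 20.2 and Scn3b 19.6. Scn4b, for all its CLIP reads, stood at percentile 9.51 of these genes in CLIP relative to RNA, and Scn3a at percentile 57.0. These CLIP sums leave out listed positions that have no line in the count table. That holds for 5 of 11 listed positions in Scn4b and 2 of 4 in Scn2b, and their part in the ratio was not tested.

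Scn4b was the only one of the 6 tested channel genes whose treatments did not overlap in this ratio. It had 14.5, 12.9 and 19.0 CLIP CPM per 100 RNA CPM after saline and 22.6, 27.6 and 21.3 after methamphetamine. The lowest methamphetamine pool lay above the highest saline pool. On side A the saline pools had 14.5 and 19.0 and the methamphetamine pool 27.6, and on side B the saline pool had 12.9 and the methamphetamine pools 22.6 and 21.3. On the log2 scale the change in CLIP minus RNA was 0.63 ± 0.49, with a 95% interval of -0.46 to 1.73, an unadjusted limma p of 0.224 and an adjusted p of 1.00. Leaving out 1 pool at a time gave 0.52 to 0.79, and with the library side as a covariate it was 0.75. Scn2a had 23.7, 13.5 and 33.5 after saline and 70.1, 41.7 and 19.8 after methamphetamine, a change of 0.80 ± 0.62 on the log2 scale, which was 0.37 without methamphetamine replicate 1, 0.45 without saline replicate 2 and 1.27 without methamphetamine replicate 3. Its treatments overlapped, and its 2 lowest values came from saline replicate 2 and methamphetamine replicate 3, both of side B. The changes of the other 4 tested genes lay between 0.09 (Scn3a) and 0.41 (Scn8a), each smaller than its SE. Of 6468 genes, 0 (0%) passed the adjusted threshold in limma, 176 (2.72%) had an unadjusted p under 0.05, none of them a channel gene, and 7.19% had treatments that did not overlap.

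**Figure D4:**
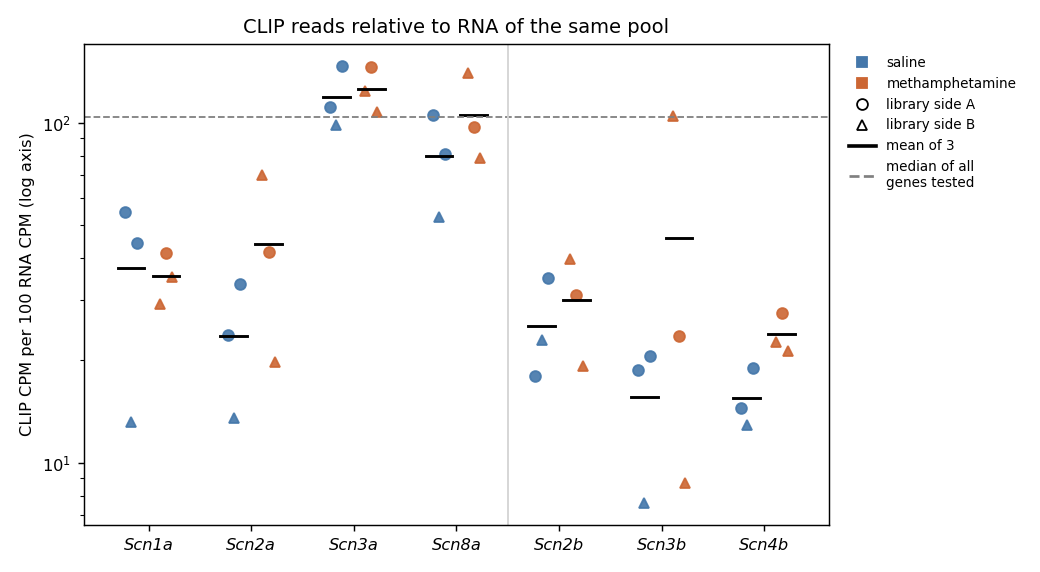
CLIP CPM per 100 RNA CPM of the same pool (log axis) for each sodium channel gene, 3 pools per treatment, with bars at the mean of 3 and a dashed line at 104, the median of all genes tested. Scn4b lies at 12.9 to 19.0 after saline and 21.3 to 27.6 after methamphetamine, and the dashed line runs through the Scn3a pools.

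At single positions, 12 of the 415 had enough reads for the test, 8 of them in Scn4b. The position with the most reads was in the 3′ UTR of Scn4b, in exon 5, near the transcript's end (chr9:45153596-45153695, plus strand, GRCm38), the window of the first sequence above. It had 110, 66.2 and 173 CPM after saline and 126, 244 and 102 after methamphetamine. The highest value came from methamphetamine replicate 2 and the lowest from saline replicate 2, and the change was 0.55 ± 0.42. The adjoining window (chr9:45153696-45153795) had 27.5, 23.6 and 42.2 after saline and 39.6, 68.4 and 15.1 after methamphetamine, a change of 0.50 ± 0.53. Further upstream in the same exon, the window at 45152796 had 3.80, 14.2 and 8.56 after saline and 28.6, 9.18 and 11.8 after methamphetamine. There the 3 side B libraries (11.8 to 28.6) lay above the 3 side A libraries (3.80 to 9.18). The window at 45152996 had a change of 1.30 ± 0.81 with overlapping treatments, at 2.85 to 11.8 CPM after saline and 6.72 to 24.2 after methamphetamine. That change was 0.43 without methamphetamine replicate 1 and 0.83 without saline replicate 1.

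The other 4 tested Scn4b positions were in introns. In intron 2 the window at 45147196 had 17.1, 2.36 and 17.7 CPM after saline and 1.10, 15.3 and 3.36 after methamphetamine, so all 3 side A libraries lay above all 3 side B libraries. The window at 45147396 had the same side order (11.6 to 16.3 against 2.36 to 8.80), as did the window at 45148996 in intron 3 (11.0 to 13.3 against 3.30 to 8.40). The window at 45147496 had 11.4, 2.36 and 18.3 after saline and 20.9, 17.3 and 16.8 after methamphetamine, a change of 0.87 ± 0.60. Its lowest value, in saline replicate 2, was 1 read. Scn4b thus had intron windows that were higher on side A and a 3′ UTR window that was higher on side B within 1 gene.

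**Figure D5:**
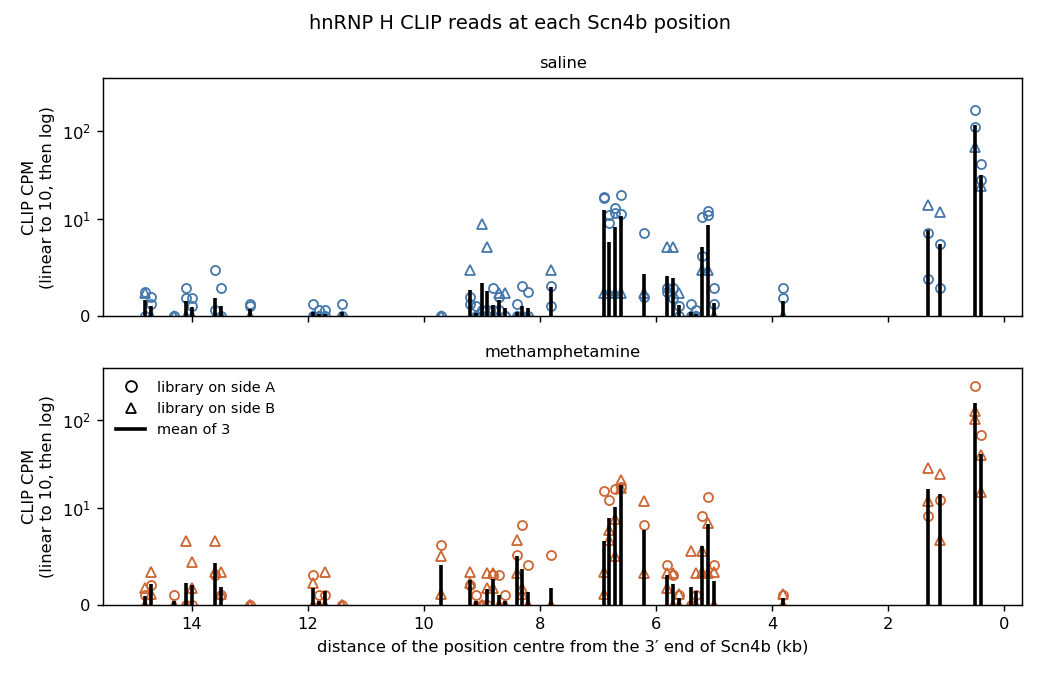
CLIP CPM at each of the 42 Scn4b positions (vertical axis linear to 10, then log) against the distance of the position's centre from the 3′ end of the gene in kb, for 3 saline libraries (top) and 3 methamphetamine libraries (bottom), with bars at the mean of 3. In both treatments the highest bar is the same 3′ UTR position near the end of the gene, and the next highest include intron positions, where saline replicate 2 has 2.36 CPM or less at several positions.

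In the other genes, 4 positions were tested. Scn3a had 1, in intron 4 (chr2:65526619-65526718, minus strand), with 38.0, 52.0 and 57.5 CPM after saline and 37.4, 42.9 and 35.3 after methamphetamine. It was the second of all 415 positions by reads, with 253, and was read in all 6 libraries; its change was -0.23 ± 0.38. Scn2b had 2, both in the 3′ UTR of exon 4. That at 45128183 had 19.9, 9.45 and 21.4 after saline and 20.9, 22.5 and 5.04 after methamphetamine, a change of 0.09 ± 0.61. That at 45127783 had 7.60, 7.09 and 20.2 after saline and 11.0, 18.4 and 23.5 after methamphetamine, a change of 0.66 ± 0.55. Scn8a had 1, in intron 1 (chr15:100917659-100917758), with 11.4, 0 and 12.8 after saline and 1.10, 17.3 and 1.68 after methamphetamine. Its side A libraries had 12 to 21 reads and its side B libraries 0 or 1, where a count of 0 allows up to 3 reads.

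Each of the 12 had an adjusted p of 0.996 in edgeR, and the treatments overlapped in all of them. Over all 10358 positions tested, 0 (0%) passed the adjusted threshold, 369 (3.56%) had an unadjusted p under 0.05, none of them in a channel gene, and 7.49% had treatments that did not overlap. DESeq2 called 0, with 345 at an unadjusted p under 0.05. The library sides did not overlap at 5 of the 12, against 32.8% of all positions tested: 4 of the 6 intron positions were higher on side A, and 1 of the 6 3′ UTR positions was higher on side B.

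The authors' deposited tables list peaks per treatment, without replicates, and place 17 distinct channel positions in each list. Of 24 distinct positions, 10 were in both lists, which is 58.8% of each; over the whole lists, 48.7% of the 9903 methamphetamine positions and 50.0% of the 9537 saline positions met one of the other list. Scn4b had 11, of which 8 were in both lists. Scn8a had 6, with 1 in both, and Scn2b had 4, with 1 in both. Scn1a, Scn2a and Scn3a had 1 each, in the saline list alone, and Scn3b had none. Of the 24, 13 were in 3′ UTRs, 9 in introns, 1 in a coding exon and 1 in another exon.

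In the authors' deposited table for methamphetamine, the highest signal value of a channel peak (a score whose scale is not given in the sources used here) was 2.17 for the Scn2b window at 45128183, ranked 2177 in its list. That window was absent from the saline list, yet saline replicates 1 to 3 gave it 21, 4 and 35 reads and methamphetamine replicates 1 to 3 gave it 19, 22 and 3. The highest Scn2b value in the authors' deposited table for saline was 1.09, for the window at 45127783. The Scn8a window at 100918159 in intron 1 had 1.84 in the authors' deposited table for methamphetamine and 1.48 in that for saline. It was read mostly on side A, with 22 and 12 reads in saline replicates 1 and 3 and 27 in methamphetamine replicate 2, against 0, 4 and 2 on side B. The authors' deposited tables gave the Scn4b window at 45153896 signal values of 1.77 (saline, the highest for Scn4b in that list) and 1.66 (methamphetamine). It had no line in the count table. The highest Scn4b value in the authors' deposited table for methamphetamine was 1.71, for the intron 2 window at 45147496, which had 1.44 in that for saline. For Scn4b, 5 of the 11 listed positions had no such line, as had 2 of the 4 in Scn2b.

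The single listed peaks of Scn1a, Scn2a and Scn3a, in the saline list alone, were also read after methamphetamine. The Scn2a coding window in exon 17, whose sequence is given above, held 14, 0 and 4 reads from saline replicates 1 to 3, and methamphetamine replicates 1 to 3 gave it 2, 13 and 2. The Scn1a window, in an intron (chr2:66393779-66393878, minus strand), had 11, 1 and 12 after saline and 1, 10 and 4 after methamphetamine, so its side A libraries had 10 to 12 reads and its side B libraries 1 to 4. The Scn3a window in intron 1 (chr2:65543019-65543118) had 17, 3 and 5 after saline and 7, 12 and 1 after methamphetamine. The signal values of these 3 peaks in the authors' deposited table for saline were 1.36 for Scn2a, 1.38 for Scn1a and 1.53 for Scn3a, under that list's median of 1.68. The 3 channel positions with the most reads in the count table, 2 in the 3′ UTR of Scn4b and 1 in intron 4 of Scn3a, were in neither list.

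The other genes of the pathway were followed as 3 lists, and none of their members passed the adjusted threshold in RNA-seq. Of 8 other sodium channel genes (7 subunits and the leak channel Nalcn), 0 had an unadjusted limma p under 0.05, and the median change was -0.07, with 3 above 0. Scn9a, an alpha subunit best known from sensory neurons, was the only one of the 8 whose treatments did not overlap, beside 6.01% of all genes, with 3.36, 3.26 and 3.22 log2 CPM after saline and 2.91, 2.89 and 2.93 after methamphetamine. It had 32 to 45 reads per library, and its change of -0.37 ± 0.25 had an unadjusted limma p of 0.165.

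Of 28 partners of the channels (among them ankyrins, spectrins, contactins, neurofascin, fibroblast growth factor homologues and calmodulins), 16 had an RNA change above 0, the median was 0.03 and 0 had an unadjusted limma p under 0.05. Fyn, a tyrosine kinase, had a change of 0.17 ± 0.16. In CLIP gene sums, 24 of the 28 had a change above 0, with a median of 0.34, the same median as the channel genes, and 1 had an unadjusted p under 0.05. Of 12 splicing factors that act on channel exons, 6 had an RNA change above 0, with a median of 0.02, and 10 of the 11 tested in CLIP had a change above 0, with a median of 0.44. Hnrnpf, the close relative of hnRNP H, had a change of 0.21 ± 0.21 in RNA. All genes tested had medians of 0.002 in RNA and 0.04 in CLIP. Of them, 50.4% had a change above 0 in RNA and 52.3% in CLIP gene sums. In CLIP gene sums, 5.25% had an unadjusted edgeR p under 0.05.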

How the data were processed

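RNA-seq and hnRNP H CLIP-seq came from the same 6 pools. Per the submitters' processing notes, Trimmomatic, UMI-tools, STAR, bedtools, Subread, featureCounts, limma and edgeR were used with build mm10; the role of each, the annotation and the peak caller are not given in the sources used here. The deposited RNA-seq values are log2 CPM, normalized by the authors. With an offset of 0.5 reads, 100% of them gave whole reads (tolerance 0.02 reads). The deposited CLIP table holds whole-number counts per 100-base position. Its 172271 lines included 24597 repeats, and each of 147438 positions was used once. The authors' peak lists give a signal value, treated as a score of unknown scale, with p-values and q-values per the file headers.

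The RNA-seq fit over all genes used limma 3.58.1 with a variance trend. The CLIP fits, over positions and over gene sums, used the quasi-likelihood test of edgeR 4.0.16 after TMM scaling and filterByExpr, in R 4.3.3. CLIP minus RNA is log2(CLIP CPM + 1) minus log2(RNA CPM + 1) of the same pool, tested with limma, so fold changes of low genes are understated. The threshold was a Benjamini-Hochberg adjusted p under 0.05 over all features. RPKM used recovered reads and merged GENCODE M21 exons. Peaks of the 2 lists met if they shared at least 1 base on the same strand. SEs and intervals of changes reflect the spread between pools, and the limit of 3 reads for a count of 0 covers counting error only. For CLIP positions and gene sums, the SE was back-calculated. It is the size of the change divided by the square root of the quasi-likelihood F statistic.

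The members and lists were chosen with earlier results of these data known. Named were all 7 genes, every tested channel position, the highest listed peak of each gene and list, the 3 genes most like each, and up to 3 genes per direction and related list by unadjusted p. Peaks listed in 1 treatment, positions in neither list and the Scn4b to Scn2a ratio were picked with their values in view. Marker lists of 8 cell types were summed in CPM: the 8 oligodendrocyte genes had 4567 to 12552, the 6 microglia genes 206 to 328 and the 4 endothelial genes 42.9 to 103 over the 6 libraries. Fits were also run on data simulated with a fixed spread and without library sides. Such a run checks the code and cannot show how the fits behave on these pools. Alternatives are given in the closing section. Intron sequences were not used here. Some genes and 1 sequence that these rules would name are not reported here.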

Additional observations from a re-analysis of the deposited data

How the results depend on the processing

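No alternative gave a channel gene, or any of the 12 channel positions of the main test, an adjusted p under 0.05. The number called over all features was 0 under each setting except 1. Testing CLIP positions with no count filter called 414 of 140449 positions, against 0 of 10358. None of the 12 channel positions of the main test was among the 414. Values of the other channel positions under this setting were not read out. The number at an unadjusted p under 0.05 was 103 to 958 for RNA-seq, 109 to 6792 for CLIP positions, 184 to 982 for CLIP gene sums and 105 to 409 for CLIP minus RNA over all settings. With a replicate block, 0 were called in each of the 4 comparisons, and 144, 109, 184 and 131 had an unadjusted p under 0.05. In departures from each feature's average level, same-numbered saline and methamphetamine pools correlated at -0.82 to -0.09 over the 2 assays. They do not describe raw levels, which were alike across pools. Each such pair had a pool on each library side, so these values cannot show whether the numbers pair pools. The replicate block turned the direction of the Scn2b position at 45128183 (-0.055).

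Signs of small changes turned. In RNA-seq, with a pseudocount of 1 CPM the change was 0.065 for Scn1a, 0.047 for Scn2a, 0.023 for Scn2b and 0.0073 for Scn3b, each under the median over all genes, which moved from 0.002 to 0.075 under this setting. For the next values the cause was not tested: edgeR on recovered reads gave 0.018 for Scn1a. With no count filter the CLIP changes were -0.32 for Scn2b 45128183 and -0.15 for Scn4b 45147396, beside a median over all positions of 0.21 in place of -0.04. Under the same setting the gene sums changed by -0.041 for Scn3a and -0.0061 for Scn1a, beside a median over all gene sums of 0.015 in place of 0.038. With the library side as a covariate the position changes were 0.62 for Scn8a 100917659 and 0.16 for Scn4b 45148996. Without each gene's highest position the Scn1a sum was -0.15.

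Leaving out 1 library at a time gave RNA changes of -0.31 to 0.16 for Scn1a, -0.33 to 0.22 for Scn2a, -0.18 to 0.026 for Scn2b, -0.16 to 0.033 for Scn3b and -0.011 to 0.096 for Scn8a. CLIP sums ran from -0.0070 to 0.58 for Scn4b, -0.15 to 0.050 for Scn3a and -0.19 to 0.43 for Scn1a. CLIP minus RNA ran from -0.49 to 0.51 for Scn1a and -0.034 to 0.25 for Scn3a. Positions ran from -2.25 to 0.15 (Scn8a 100917659), -0.32 to 0.52 (Scn2b 45128183), -0.091 to 0.54 (Scn4b 45147396) and -0.50 to 0.18 (Scn4b 45148996). The RNA change of Scn4b (-0.57 to -0.13) and both the Scn2a CLIP sum and the Scn4b CLIP minus RNA change kept their direction under every setting run. So did the RNA change of Scn3a and the CLIP sums of Scn8a and Scn2b. The CLIP minus RNA changes of Scn2a, Scn8a and Scn2b also kept theirs, as did the tested positions not named in this paragraph. A kept direction was thus common among these changes, also among small ones.

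With both lists limited to peaks at or above their own median signal value, which left 6 and 1 channel peaks, 1 of 6 of the methamphetamine list (16.7%) and 1 of 1 of the saline list (100%) met one of the other list; an overlap of 50 bases left the shares at 58.8%. At this depth 403 of 415 positions had too few reads to be tested, and 233 had more than 3 reads in no library. With 3 pools against 3, an exact permutation test cannot go below 0.1.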

Other observations

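Some channel positions were read mostly in 1 library, and these were chosen after their values were seen. In intron 2 of Scn8a, the adjoining windows at 100941859 and 100941959 had 36 and 35 reads in saline replicate 1 and 0 to 3 in each other library. Of the 415 channel positions, 61 had over 90% of their reads in a single library. The 2 adjoining windows, with 46 and 43 reads in all, are not among them. No floor of reads was set, so a position with 1 read in total counts. The same share over all positions of the CLIP table was not taken, so the 61 cannot be read as particular to these genes. The Scn8a window at 101035759 in intron 26 held 11, 2 and 22 reads from saline replicates 1 to 3, and methamphetamine replicates 1 to 3 gave it 0, 6 and 0. Across the 17 listed channel positions with counts, 8 had sides that did not overlap. The share was 32.8% of all positions tested, but some of the 17 had too few reads to be tested, so the sets are unlike.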
